A study of Mus musculus with 72 samples.

Results

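Lymphoma lines that came back after CX-5461 were compared with drug-naive lines of the same clone, in cytoplasmic (input) RNA. The comparison takes 6 of the 72 libraries of the series: CX5461 relapse lines 14, 20 and 39 against naive lines 6, 33 and 38, chosen by their labels and not by any measured value. All 6 lines are Eμ-Myc B-lymphoma cells, mouse cells in which a Myc transgene is driven by an immunoglobulin heavy chain enhancer. They carry an MSCV Gfp vector and descend from clone 107 transplanted into mice. The naive lines came from vehicle-treated mice and the relapse lines from mice whose disease had returned after CX-5461. Lymph node cells were taken at that endpoint and grown for 2 to 3 passages in medium with 20% serum. The lines had therefore left the mouse before RNA was taken, and the labels mention no drug in that culture. Of the 12 relapse lines, 3 from mice treated with everolimus and 3 from mice treated with both agents serve here only for comparison. The acute study of the series used another clone, 4242, and gave CX-5461 for 2 h to 6 mice per group.

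CX-5461 blocks the start of ribosomal DNA transcription by RNA polymerase I, the enzyme that makes the precursor of most ribosomal RNA, and everolimus inhibits the growth kinase complex mTORC1. Lymphomas driven by Myc depend on a high rate of ribosome production. A B-cell lymphoma also carries its own lineage record: the heavy and light chain genes rearranged in the founder cell, by the recombinase Rag1 and Rag2, and any gain or loss of chromosomes that a subclone acquired later.

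The 6 libraries held 15.8 to 24.2 M counts. Levels are counts per M counts (CPM) scaled by the TMM method of edgeR. A gene is called when the edgeR quasi-likelihood test, fitted on all 12 relapse input libraries and adjusted by the Benjamini-Hochberg method over 14474 genes, gives an adjusted p under 0.05. Errors after ± are standard errors of the log2 fold change. There were 3 lines per group, and the labels do not say whether each came from its own mouse, so p-values measure the spread between these lines. The libraries fall in 2 processing runs, seen in the level of Gm9341, a predicted gene: it stood between 0.04 and 0.21 CPM in naive 33, naive 38, CX5461 14 and CX5461 39 (the low run) and between 35.8 and 54.7 CPM in naive 6 and CX5461 20 (the high run). The lines of the low run were also the more alike within their group. The variance between libraries was 4.66 times sampling noise for naive 33 and 38 and 5.47 times for CX5461 14 and 39, but 12 to 14.5 times for CX5461 20 against the other CX5461 lines and 21.2 to 21.6 times for naive 6 against the other naive lines. Run and likeness of lines cannot be told apart in these input libraries. The polysomal libraries of the 3 CX5461 lines, given below, are all in the low run. Most B-cell markers were present at high levels in all 6 libraries, with Cd79a between 169 and 358 CPM and Pax5 between 115 and 179 CPM. Some markers of mature B cells were low: Ms4a1 stood between 0.725 and 10.9 CPM, Cr2 between 0.469 and 4.8 CPM and Fcer2a between 0.0464 and 0.789 CPM. Markers of the pro-B and pre-B stage were mixed. Of 20 such genes, 6 stayed below 1 CPM in all 6 libraries. Dntt did not exceed 0.22 CPM, Kit 0.617 CPM and Igll1 0.664 CPM, while Vpreb3 stood between 172 and 247.5 CPM. The T-cell marker Cd3e was at 0 in all but naive 38 (0.22 CPM), and the myeloid marker Lyz2 did not exceed 0.044 CPM.

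The CX5461 relapse lines differed from the naive lines in 1211 of 14474 genes: 667 were higher (4.61% of the genes tested) and 544 were lower (3.76%). In 1197 of the 1211, all 3 CX5461 lines lay on one side of all 3 naive lines, as they did in 3933 of all 14474 genes (27.2%); the 1211 were called from the same libraries. The called genes included a changed light chain, a lower chromosome 6 and a higher chromosome 3, higher AP-1, NR4A and ERK feedback genes, and genes that were nearly silent in one group. Where the groups do not overlap, the sign within each run is already fixed, so the next counts are a description. Within the low run all 667 higher and all 544 lower genes had the same sign as over all lines, and within the high run, with 1 line per group, 664 of 667 and 544 of 544 did. The 3 exceptions were Rab3ip, Kcnk1 and Rtn4r, named here because they are the exceptions: Rtn4r stood at 2.74, 2.01 and 2.25 CPM in naive 6, 33 and 38 and at 24.9, 2.14 and 20.1 CPM in CX5461 14, 20 and 39, so CX5461 20 was at the naive level. A difference of at least 0.5 on the log2 scale in both runs was found for 412 of the higher and 432 of the lower genes.

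**Figure D1:**
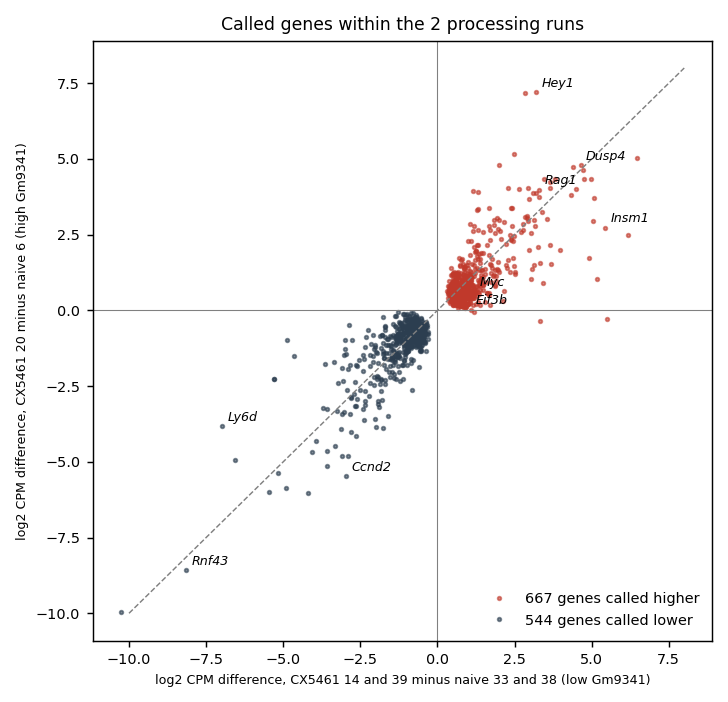
Difference in log2 CPM between CX5461 and naive lines in the low run (x axis, CX5461 14 and 39 minus naive 33 and 38) and in the high run (y axis, CX5461 20 minus naive 6); each point is 1 called gene, red for the 667 higher and dark for the 544 lower, and the dashed line marks equal differences. Nearly all points lie in the 2 quadrants of matching sign, with Hey1 farther from 0 in the high run and Insm1 farther from 0 in the low run.

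The light chain in use differed between the groups. In each naive line the kappa V segment Igkv1-117 supplied most light chain V counts, while it was almost absent from the CX5461 lines, which instead had Igkv4-53 or Igkv5-43. The immunoglobulin genes lie outside the rule for named genes and were chosen after their values were seen. The last 120 bases of the germline V exon of these segments are shown because Igkv1-117 had the largest fitted fall of all genes tested, together with Igkv1-110, the segment whose sequence is closest to Igkv1-117; capitals mark the codon of the conserved cysteine that ends framework 3. Sequences are from the GRCm38 genome at the exons of GENCODE M21, in the sense of the gene, at chr6:68121708-68121827 (plus strand), chr6:69648824-69648943 (minus strand), chr6:69823355-69823474 (minus strand) and chr6:68271148-68271267 (plus strand).
Igkv1-117: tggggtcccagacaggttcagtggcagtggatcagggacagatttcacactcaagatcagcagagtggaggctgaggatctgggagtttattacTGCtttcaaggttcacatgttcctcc
Igkv4-53: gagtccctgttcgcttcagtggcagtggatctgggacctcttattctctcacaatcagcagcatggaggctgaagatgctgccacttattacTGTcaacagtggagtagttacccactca
Igkv5-43: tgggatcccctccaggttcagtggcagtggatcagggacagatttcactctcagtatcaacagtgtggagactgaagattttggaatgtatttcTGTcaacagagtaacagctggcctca
Igkv1-110: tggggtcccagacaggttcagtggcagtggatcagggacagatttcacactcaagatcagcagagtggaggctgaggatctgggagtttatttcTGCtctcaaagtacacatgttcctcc

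These sequences bear on how far the counts can be assigned. The V exon of Igkv1-117 is 62.5% identical to that of Igkv4-53 and 68.3% to that of Igkv5-43, and none of its stretches of 50 bases, the read length, occurs in either. Against Igkv1-110 it is 96.8% identical and shares 121 of its 264 stretches of that length, and Igkv5-43 shares 159 of 249 with Igkv5-45, so counts within those pairs can be split or mixed. Somatic changes in the rearranged genes are not part of these reference sequences.

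Igkv1-117 had 3370, 2733 and 3326 counts in naive 6, 33 and 38, and 1, 1 and 0 counts in CX5461 14, 20 and 39. Scaled for library size, the naive sum was 4840 times the CX5461 sum (95% counting interval 1340 to 40000, which covers counting error only), and the gene was called lower (edgeR adjusted p = 0.00659). It made up 59.3%, 75.1% and 77.2% of all Igkv counts in the naive lines. Igkv4-53 was the leading segment in CX5461 14, with 51.2% of Igkv counts (exact binomial interval 48.9 to 53.5%), and in CX5461 39, with 42%. Its level was 0.186, 0.53 and 2.47 CPM in the naive lines and 39.2, 5.61 and 29.3 CPM in CX5461 14, 20 and 39. Igkv5-43 led in CX5461 20, with 65.9% of Igkv counts and 67.5 CPM, against 14.2 and 17.4 CPM in CX5461 14 and 39 and 0.371 to 2.12 CPM in the naive lines. No naive line therefore overlapped the CX5461 lines in any of the 3 segments, and the CX5461 lines did not all lead with the same one.

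The heavy chain did not switch. Ighv2-2 was the leading heavy chain V segment in all 12 relapse input libraries, with 78.1% to 83.7% of Ighv counts. The heavy chain constant gene Ighm stood at 2016, 1895 and 1539 CPM in the naive lines and 1194, 1959 and 1007 CPM in the CX5461 lines, which overlapped (log2 fold change -0.39 ± 0.25, edgeR adjusted p = 0.386). The kappa constant gene Igkc, in contrast, fell from 293, 411 and 325 CPM to 80.5, 72.3 and 59.1 CPM (log2 fold change -2.28 ± 0.27, edgeR adjusted p = 0.000955). A lambda constant gene, Iglc2, also fell, from 8.21, 6.57 and 7.14 CPM to 0.0426, 1.62 and 0.124 CPM, with CX5461 20 above the other CX5461 lines. Igkv1-117 was not lost from every treated line: everolimus line 4 held 978 counts, 45.7% of its Igkv counts, while everolimus lines 12 and 26 held 7 and 19 counts and the combination lines 4 to 5. In bulk RNA a smaller share of cells with a rearrangement and less of its RNA per cell cannot be told apart.

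**Figure D2:**
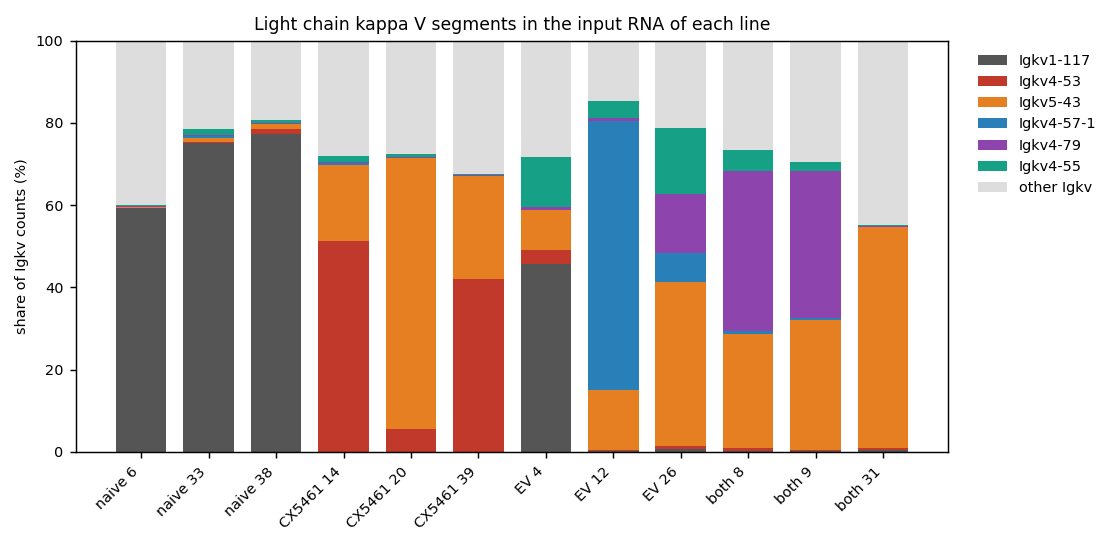
Share of all Igkv counts (y axis, percent) taken by 6 kappa V segments and by the remaining ones (grey) in the input library of each of the 12 relapse lines. Dark grey Igkv1-117 fills 59.3% to 77.2% of the naive bars and is too small to be seen in the 3 CX5461 bars, where Igkv4-53 (red) or Igkv5-43 (orange) is largest.

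The recombinase genes were higher in the CX5461 lines. Rag1 was at 6.59, 5.78 and 8.15 CPM in naive 6, 33 and 38 and at 64.2, 105 and 73.7 CPM in CX5461 14, 20 and 39. That is a log2 fold change of 3.56 ± 0.30 (edgeR adjusted p = 0.000134). Rag2 rose from 7.52, 4.13 and 5.42 CPM to 17, 19 and 20.6 CPM (1.73 ± 0.24, edgeR adjusted p = 0.00219). The groups did not overlap in either gene, and both calls held in all 14 alternative analyses, each run alone and with 1 line left out among them. Of the 14 pro-B and pre-B stage genes tested, these were the 2 that rose, against 4.61% higher and 3.76% lower over all genes. Cd93, a surface receptor of early B cells, fell from 596, 708 and 582 CPM to 265, 347 and 278 CPM. The receptor of interleukin 7, Il7r, did not pass the test: it was at 20, 11.7 and 13.7 CPM in the naive lines and 15.9, 4.86 and 17 CPM in the CX5461 lines. Among 20 genes of B-lymphocyte identity, Blnk, an adaptor of B-cell receptor signalling, was higher (0.51 ± 0.13) and Spib was lower. These counts are close to the shares over all genes, and the call of Blnk was kept in 5 of 14 alternatives. Spib, an ETS transcription factor of B cells, stood at 295, 371 and 314 CPM in the naive lines and 83.4, 103 and 75.8 CPM in the CX5461 lines (-1.90 ± 0.23, edgeR adjusted p = 0.00124).

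Chromosome 6, which carries the kappa locus, was lower along its whole length in the CX5461 lines. Over 371 genes of that chromosome with at least 3 log2 CPM, the median difference from the naive mean was -0.51, -0.50 and -0.55 on the log2 scale in CX5461 14, 20 and 39, a level of 0.700, 0.708 and 0.683 of naive. The single naive lines lay between -0.09 and 0.09. In 294 of these 371 genes (79.3%) all 3 CX5461 lines were below the naive mean. That was so in 26.4% of the 7726 genes not placed on chromosomes 3 or 6, which include symbols without a place in the annotation. Split into stretches of 15 Mb that held at least 20 genes, the median ranged from -0.33 to -0.72 over every stretch and line. No stretch was spared. Of the 632 genes of chromosome 6 that were tested, 171 were called lower (27.1%) and 8 higher, so that this chromosome supplied 31.4% of all genes that fell.

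Chromosome 3 was higher, but not alike in the 3 lines. Over 384 genes the median difference from naive was 0.26, 0.53 and 0.25 in CX5461 14, 20 and 39, and the naive lines lay between -0.09 and 0.09. In CX5461 20 every 15 Mb stretch with at least 20 genes was raised, by 0.30 to 0.65. Naive 6, of the same run, lay between -0.06 and 0.38 over these stretches, against the other naive lines. It came closest to CX5461 20 from 30 to 45 Mb, with 0.38 against 0.43. In CX5461 14 and 39 the rise was limited to the stretches between 75 and 120 Mb, with medians of 0.70 and 0.56 from 75 to 90 Mb, 0.55 and 0.58 from 90 to 105 Mb and 0.26 and 0.35 from 105 to 120 Mb, while the other stretches lay between -0.21 and 0.02. Of 620 tested genes on chromosome 3, 102 were called higher (16.5%), 15.3% of all genes that rose. The other 18 chromosomes had medians between -0.11 and 0.20 in the CX5461 lines, against -0.17 to 0.28 over the same chromosomes in the naive lines. On 2 of the 18 the CX5461 lines did not overlap the naive lines: on chromosome 5 they had 0.20, 0.08 and 0.19 against -0.08 to 0.04, and on chromosome 15 0.12, 0.08 and 0.08 against -0.05 to 0.06. Of the 13222 genes not placed on chromosomes 3 or 6, which include symbols without a place in the annotation, 557 were higher (4.21%) and 365 lower (2.76%). DNA copy number was not measured in these libraries.

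The combination lines had chromosome 6 medians of -0.54, -0.50 and -0.55 and chromosome 3 medians of 0.41 to 0.47, and the everolimus lines had -0.19 to 0.00 on chromosome 6 and 0.08, 0.24 and -0.01 on chromosome 3. On chromosome 3, everolimus 12 was close to CX5461 14 and 39. CX5461 and everolimus lines could be tested against each other: 585 of 14474 genes differed (4.04%), with 99 of the 632 chromosome 6 genes lower in the CX5461 lines (15.7%). Against the combination lines only 3 of 14474 genes were called (0.0207%, edgeR; 1262 had an unadjusted p under 0.05 and DESeq2 called 49), with none on chromosome 6. These 3 were named because they are so few: St14, a membrane serine protease, was higher in the CX5461 lines (log2 difference 1.04 ± 0.12), and Snn (-1.44 ± 0.16) and Adm, the hormone precursor of adrenomedullin (-2.90 ± 0.33), were lower, each with an edgeR adjusted p of 0.0105. Both comparisons use the same CX5461 libraries as the comparison with naive lines.

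**Figure D3:**
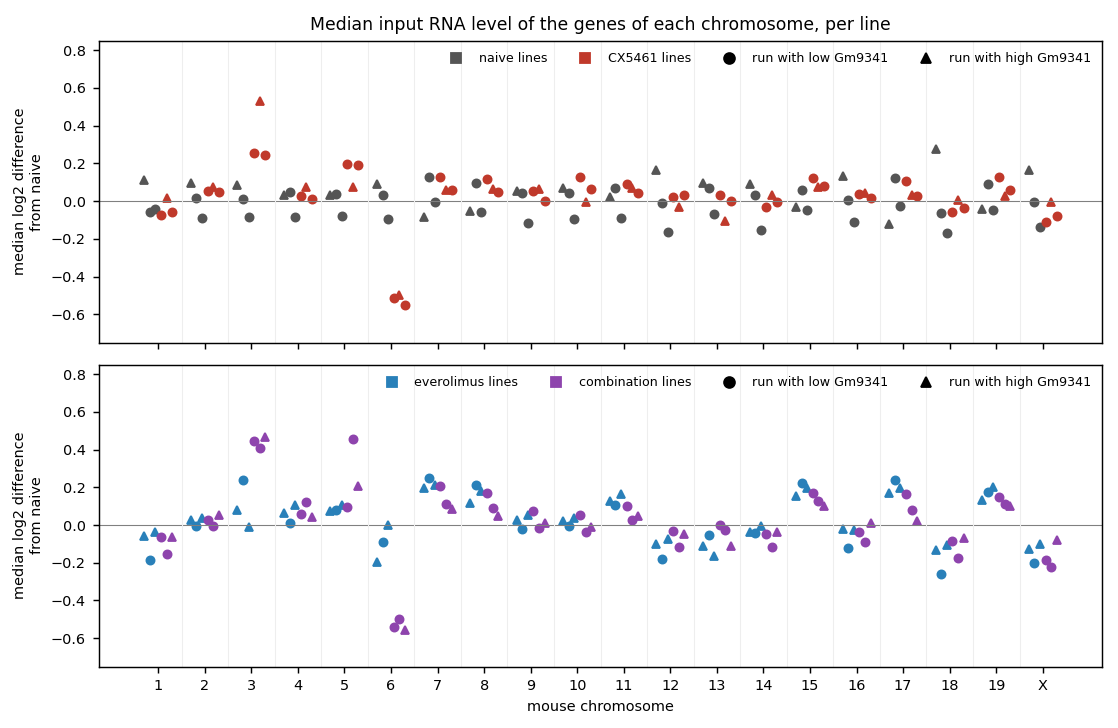
Median difference in log2 CPM from the naive mean (y axis) over the genes of each mouse chromosome (x axis), 1 point per line; circles are libraries of the low run and triangles of the high run, naive and CX5461 lines above, everolimus and combination lines below. The 3 CX5461 points on chromosome 6 sit between -0.55 and -0.50, apart from the naive points, and on chromosome 3 the triangle of CX5461 20 sits above the 2 circles.

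Several falls belong to named chromosome 6 genes. Ccnd2, the G1 cyclin D2, was at 32.4, 12.8 and 19.8 CPM in the naive lines and 1.66, 0.636 and 2.32 CPM in the CX5461 lines (log2 fold change -3.78 ± 0.72, edgeR adjusted p = 0.00928), a difference well beyond the chromosome's median. Gng12, a G protein gamma subunit, fell from 9.14, 5.51 and 6.65 CPM to 0.384, 0.231 and 0.955 CPM, and Mdfic, a regulator of transcription factors, from 2.09, 1.54 and 2.51 CPM to 0.0853, 0.116 and 0.249 CPM. Other chromosome 6 genes fell by less than these, though by more than the chromosome's median. Mad2l1, a spindle checkpoint protein, changed by -1.21 ± 0.20, Cycs, cytochrome c, by -0.97 ± 0.20, the glycolytic enzyme Tpi1 by -0.74 ± 0.18 and the ribosomal protein gene Rpl32 by -0.82 ± 0.19. Polr1a, the largest subunit of RNA polymerase I, the drug's target, is also on chromosome 6: it was at 206, 152 and 142 CPM in the naive lines and 89.2, 110 and 100.2 CPM in the CX5461 lines (-0.74 ± 0.15, edgeR adjusted p = 0.012).

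The list of AP-1, NR4A and ERK feedback genes had the highest share of called rises among the 35 lists. ERK, the last kinase of the growth factor pathway through Ras, switches on immediate early transcription factors and, with them, phosphatases and Sprouty proteins that damp its own signal. Of 26 members tested, 10 were higher and none lower, against 4.61% higher over all genes, and the list's median log2 fold change was 0.54 against -0.03 over all genes. The 10 were the phosphatases Dusp4, Dusp6 and Dusp1, the Sprouty inhibitors Spry1 and Spry4, the ETS factors Etv4 and Etv5, and the immediate early factors Egr1, Egr2 and Nr4a1. Over 15 settings the number higher ranged from 3 to 12 and the median from 0.44 to 0.80. It was 3 without naive 33, and 3 with naive 38 and CX5461 39 both left out.

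Dusp4, which removes phosphate from ERK in the nucleus, was at 0.881, 0.371 and 0.573 CPM in naive 6, 33 and 38 and at 14.6, 27.1 and 13.3 CPM in CX5461 14, 20 and 39. Its log2 fold change was 4.88 ± 0.53 (edgeR adjusted p = 0.00065). Spry4 rose from 0.881, 0.636 and 0.705 CPM to 15.7, 26.1 and 16.3 CPM (4.69 ± 0.38, edgeR adjusted p = 0.000134). Spry1, on chromosome 3, rose from 0.371, 0.424 and 0.441 CPM to 6.01, 9.42 and 5.56 CPM (4.06 ± 0.61, edgeR adjusted p = 0.00327). In each of these 3 genes the naive lines stayed below 1 CPM, the CX5461 lines were all above 5 CPM, and CX5461 20 was the highest line. Their calls held in all 14 alternatives.

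The other risers of that list changed less. Dusp6, the cytoplasmic ERK phosphatase, was at 83.6, 66.2 and 59.9 CPM in the naive lines and 137, 192 and 120.1 CPM in the CX5461 lines (1.10 ± 0.25). Etv5 was at 57.9, 42.6 and 47 CPM against 91.8, 104 and 101.5 CPM (1.01 ± 0.21), and Etv4 at 1.49, 1.06 and 2.07 CPM against 6.22, 9.71 and 6.51 CPM (2.27 ± 0.47). Egr1 stood at 6.73, 2.23 and 1.72 CPM in the naive lines, where naive 6 was highest, and at 20.7, 29.1 and 18.6 CPM in the CX5461 lines (2.67 ± 0.52). Egr2 was at 0.424 to 0.573 CPM in the naive lines and at 1.79, 9.65 and 1.04 CPM in the CX5461 lines, so that most of its rise came from CX5461 20. Fos (1.76 ± 0.85, edgeR adjusted p = 0.24) and Jun (-0.76 ± 0.58, edgeR adjusted p = 0.486) did not pass the test, nor did Dusp5 (-0.50 ± 0.24).

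**Figure D4:**
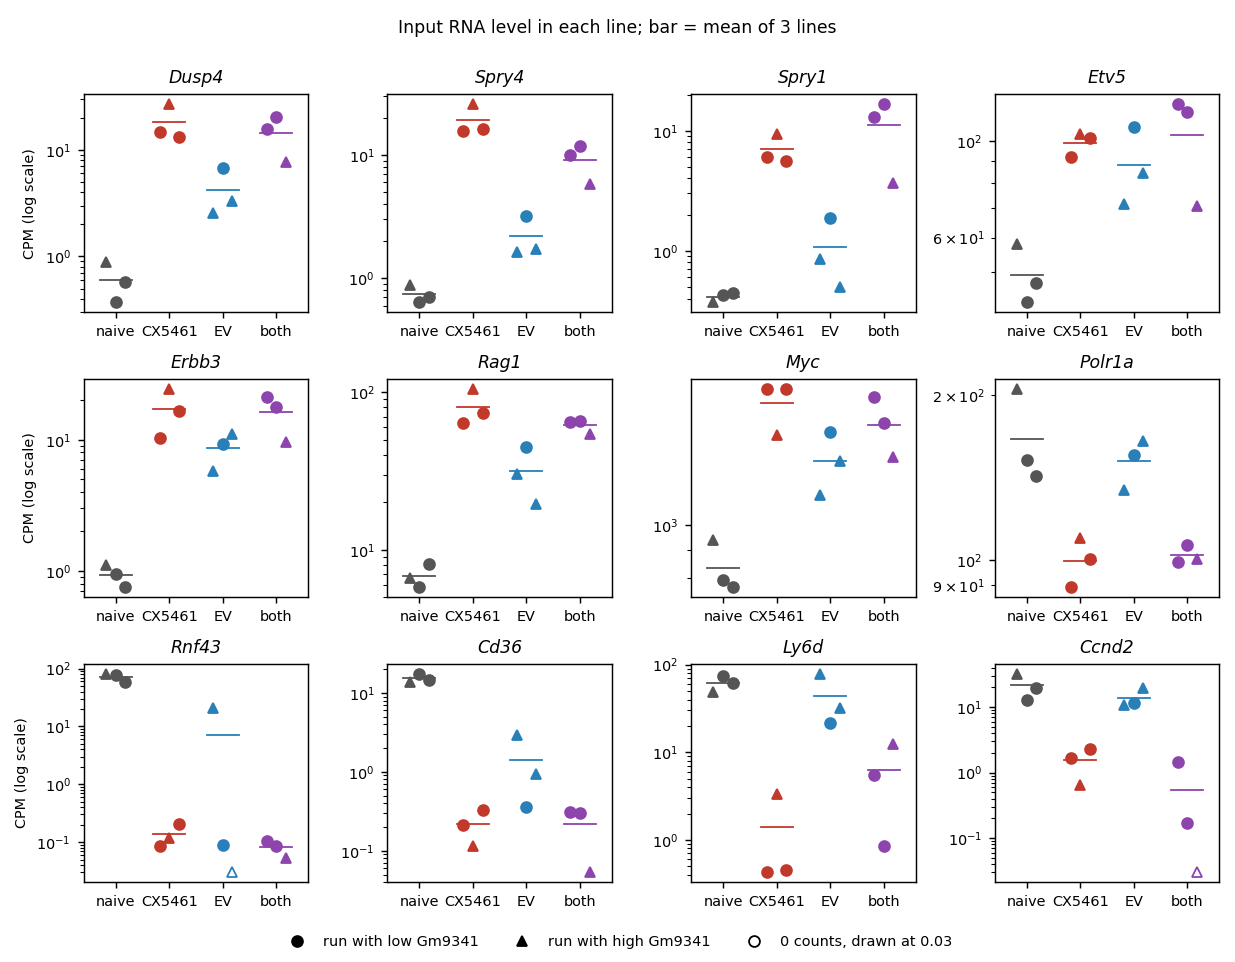
Input RNA level (y axis, CPM on a log scale) of 12 genes in each of the 12 relapse lines by group; circles are libraries of the low run, triangles of the high run, bars the mean of 3 lines, and open symbols lines with 0 counts drawn at 0.03. The 3 CX5461 lines lie apart from the 3 naive lines in all 12 genes, above them for Dusp4 to Myc and below them for Polr1a to Ccnd2.

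Among the other large rises, Erbb3, a receptor tyrosine kinase of the epidermal growth factor receptor family, went from 1.11, 0.954 and 0.749 CPM to 10.4, 24.5 and 16.6 CPM (log2 fold change 4.18 ± 0.42, edgeR adjusted p = 0.000331). Sh2b2, an adaptor of receptor tyrosine kinases, went from 0.835, 1.17 and 0.837 CPM to 27.6, 23.3 and 29.7 CPM (4.83 ± 0.35, edgeR adjusted p = 0.000121). Its 3 CX5461 lines were closer to each other than those of most large rises. Hey1, a transcriptional repressor known as a Notch target, was at 0.0464, 0.212 and 0.308 CPM in naive 6, 33 and 38 and at 3.2, 21.3 and 3.15 CPM in CX5461 14, 20 and 39. Its CX5461 sum was 42.1 times the naive sum (counting interval 23.9 to 82), and the difference was larger in the high run (7.20 in log2 CPM) than in the low run (3.20). No other member of the Notch and Wnt list was called higher among the 21 tested. Over 15 settings the number of that list called higher ranged from 1 to 6. Hes1, another Notch target, fell from 25.6, 19.2 and 20.5 CPM to 11.9, 8.38 and 9.96 CPM (-1.11 ± 0.26).

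Insm1, Scn8a, Dclk2 and Chd3 were also among the 15 largest rises. Insm1, a zinc finger factor of neuroendocrine development, was at 0.649, 0.371 and 1.06 CPM in the naive lines and 33.5, 4.86 and 30.2 CPM in the CX5461 lines, with CX5461 20 lowest. Scn8a, a voltage-gated sodium channel, rose from 1.62, 1.85 and 3 CPM to 31, 32.7 and 30.1 CPM (3.85 ± 0.36, edgeR adjusted p = 0.000187). Dclk2, a doublecortin-like kinase, rose from 0.417, 0.265 and 0.573 CPM to 10.5, 8.15 and 11.7 CPM. Chd3, a chromatin remodeller of the NuRD complex, rose from 3.06, 1.32 and 1.76 CPM to 53, 24.3 and 53.9 CPM (4.41 ± 0.60, edgeR adjusted p = 0.00194). The remaining 5 of the 15 largest rises were Enpp3, Mgat4c, Lingo3, Arhgdig and Pllp, each below 1 CPM in all naive lines and between 1.79 and 18.3 CPM in the CX5461 lines. Of the 15, 11 kept their call in all 14 alternatives and the least stable kept it in 9.

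Near-complete falls stood out at the other end. Rnf43, a ubiquitin ligase that removes Wnt receptors, was at 81.7, 76.4 and 59.6 CPM in naive 6, 33 and 38 and at 0.0853, 0.116 and 0.207 CPM in CX5461 14, 20 and 39. In counts that is 4556 against 9, a ratio of 520 after scaling (counting interval 274 to 1140; edgeR adjusted p = 0.00853). The call was lost without CX5461 14, and with naive 38 and CX5461 39 both left out. Everolimus line 4, which kept Igkv1-117, also kept Rnf43 at 21.2 CPM, while the other everolimus and all combination lines were at or below 0.104 CPM. Nphp4, a protein of the cilium base, had 262 naive counts and 1 CX5461 count (ratio 269, counting interval 47.9 to 10700). Cry1, a clock repressor, had 272 against 4 (ratio 69.9, interval 27 to 258). Both were low in the naive lines: Cmklr1 and Tmtc3, given below as low, had 283 and 325 naive counts. The call was kept in 11 of 14 alternatives for Nphp4 and in 13 for Cry1.

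Cd36, a scavenger and fatty acid receptor, fell from 13.6, 17.5 and 14.8 CPM to 0.213, 0.116 and 0.332 CPM (ratio of summed counts 65.6, counting interval 39.6 to 118; edgeR adjusted p = 0.00078). Ly6d, a surface marker of B-lineage commitment, fell from 49, 73.6 and 62.5 CPM to 0.426, 3.35 and 0.457 CPM (log2 fold change -5.55 ± 0.95, edgeR adjusted p = 0.00562). Hk1, the hexokinase that starts glycolysis, fell from 24.9, 31.8 and 23.6 CPM to 7.93, 9.31 and 6.06 CPM (-1.79 ± 0.23, edgeR adjusted p = 0.00128). Pde8a, a phosphodiesterase that breaks down cAMP, fell from 8.4, 4.08 and 4.32 CPM to 0.512, 0.694 and 0.498 CPM (-3.30 ± 0.42), while Adcy3, an adenylyl cyclase that makes cAMP, rose from 8.44, 9.01 and 8.11 CPM to 20.7, 27.3 and 22.4 CPM (1.46 ± 0.20, edgeR adjusted p = 0.00194). Of the 35 cAMP and EPAC genes tested, 6 rose and Pde8a alone fell, against 4.61% higher and 3.76% lower over all genes. Rapgef3, which encodes the cAMP sensor EPAC1, did not pass the test: it was at 7.1, 11.8 and 7.05 CPM in the naive lines and 19.1, 5.95 and 18.3 CPM in the CX5461 lines.

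The remaining 8 of the 15 largest falls were low in the naive lines too. Flot2, a lipid raft scaffold, Tmtc3, Zfp518b, Cmklr1, a chemerin receptor, Cacna1h, a calcium channel, Utrn, utrophin, Irgc1 and Mdfic did not exceed 7 CPM in any naive line. Of the 15, 5 kept their call in all 14 alternatives: Cd36, Flot2, Gng12, Tmtc3 and Zfp518b. Cacna1h was the least stable, with a call in 6.

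Of 21 genes of the RNA polymerase I machinery, the drug's own target, 3 were higher and Polr1a, described above, was lower, with a list median of 0.26; over all genes 4.61% were higher and 3.76% lower. Within the low run 5 were higher and 2 lower, and within the high run none and 1. Polr1b, the other subunit of the catalytic core, rose from 118, 96.6 and 102 CPM to 164, 177 and 165 CPM (0.67 ± 0.12, edgeR adjusted p = 0.00571). The subunits Polr1c (0.58 ± 0.14) and Polr2h (0.59 ± 0.12), which also serve other polymerases, rose by a like amount. The initiation factor Rrn3 was at 88.1, 64.8 and 58.4 CPM in the naive lines and 67.5, 74.1 and 73.5 CPM in the CX5461 lines (0.03 ± 0.16), and the ribosomal DNA binding factor Ubtf changed by 0.05 ± 0.11. Neither passed the test.

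Of 80 ribosome biogenesis factors, 7 were higher and 73 did not pass the test, with a median of 0.18, against 4.61% higher over all genes. The median was 0.33 within the low run, 0.08 within the high run and -0.01 in polysomal RNA. Bop1, which processes the large subunit precursor, rose from 124, 147 and 149 CPM to 258, 209 and 237 CPM (0.74 ± 0.14, edgeR adjusted p = 0.00765), and Tbl3, of the small subunit processome, by 0.71 ± 0.17. The number higher ran from 0 to 24 over 15 settings. Of 82 cytosolic ribosomal proteins, none was higher and 3 were lower (Rpl32, Rps24 and Rpl23), close to the 3.76% lower over all genes. The values differed by run: 11 were lower in the low run (median -0.22) and 2 higher in the high run (median 0.22), and in polysomal RNA 24 were higher and 2 lower. Rps24 differed by -1.02 in log2 CPM within the low run but by -0.16 within the high run, and Rpl23 by -0.13 within the high run.

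Myc, measured as transgene and native gene together, rose from 941, 794 and 769 CPM to 1776, 1467 and 1782 CPM (log2 fold change 1.01 ± 0.16, edgeR adjusted p = 0.00446). The call was kept in 12 of 14 alternatives. It was lost within the high run, with naive 6 and CX5461 20, and with CX5461 39 and naive 38 both left out. Max, its binding partner, rose by 0.49 ± 0.12. Enzymes of nucleotide synthesis that rose were Shmt1 (101, 87.7 and 103 CPM against 162, 168 and 180 CPM), Gart (187, 187 and 187 CPM against 318, 309 and 327 CPM) and Mthfd1. These were 3 of 28 tested, while Adssl1 fell (-1.10 ± 0.22), against 4.61% higher and 3.76% lower over all genes. The median of that list was 0.26 within the low run and -0.12 within the high run. Mthfd1 kept its call in 5 of 14 alternatives. Of 36 genes of G2 and mitosis, none was higher and 4 were lower, against 3.76% lower over all genes: Mad2l1, on chromosome 6, and Mki67, Cenpf and Ccnb2, which are not. Mki67, the proliferation marker, was at 524, 524 and 354 CPM in the naive lines and 218, 265 and 235 CPM in the CX5461 lines (-0.97 ± 0.20, edgeR adjusted p = 0.0132). The median of that list was -0.02 within the low run, where 2 were higher and 5 lower, and -0.46 within the high run, where 3 were lower. Of 76 nuclear genes of the respiratory chain, 8 were lower and none higher, 3 of the 8 on chromosome 6. Its values differed by run as well: 14 were lower in the low run (median -0.19), 1 was lower and 1 higher in the high run (median 0.12), and in polysomal RNA 17 were higher and 3 lower. Of 48 ATF4 targets 5 rose (Phgdh, Mars, Ppp1r15a, Sars and Xpot) and Pycr1 fell, against 4.61% higher and 3.76% lower over all genes. Of the 5 risers 2 lie on chromosome 3, and the list's median was -0.03. The number higher ran from 0 to 6 over 15 settings.

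Genes often examined in drug resistance mostly did not pass the test. Trp53 was at 156, 169 and 153 CPM in the naive lines and 218, 233 and 204 CPM in the CX5461 lines (0.45 ± 0.15, edgeR adjusted p = 0.0838). Its target Cdkn1a, a cell cycle inhibitor, was at 19.1, 15.7 and 15.9 CPM against 10.2, 6.07 and 8.59 CPM (-1.03 ± 0.46, edgeR adjusted p = 0.201). The topoisomerases Top1 (-0.18 ± 0.14), Top2a (-0.47 ± 0.32) and Top2b (-0.36 ± 0.22), the p53 inhibitor Mdm2 (0.21 ± 0.16) and the survival genes Bcl2 (-0.43 ± 0.24) and Mcl1 (0.39 ± 0.17) were not called either. The efflux pump gene Abcb1b was at 5.38, 1.8 and 3.3 CPM in the naive lines and 7.12, 9.6 and 7.51 CPM in the CX5461 lines, without overlap but not called (1.20 ± 0.38, edgeR adjusted p = 0.0734), and Abcg2 was at or below 1.19 CPM in all 6 lines. Of 16 ABC transporters, Abcc1 (0.57 ± 0.13) and Abcg1 (0.47 ± 0.13) rose, against 4.61% higher over all genes, with calls kept in 7 and 3 of 14 alternatives. Pim1, Pim2, Eif4ebp1 and Cdkn2a were not called.

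**Figure D5:**
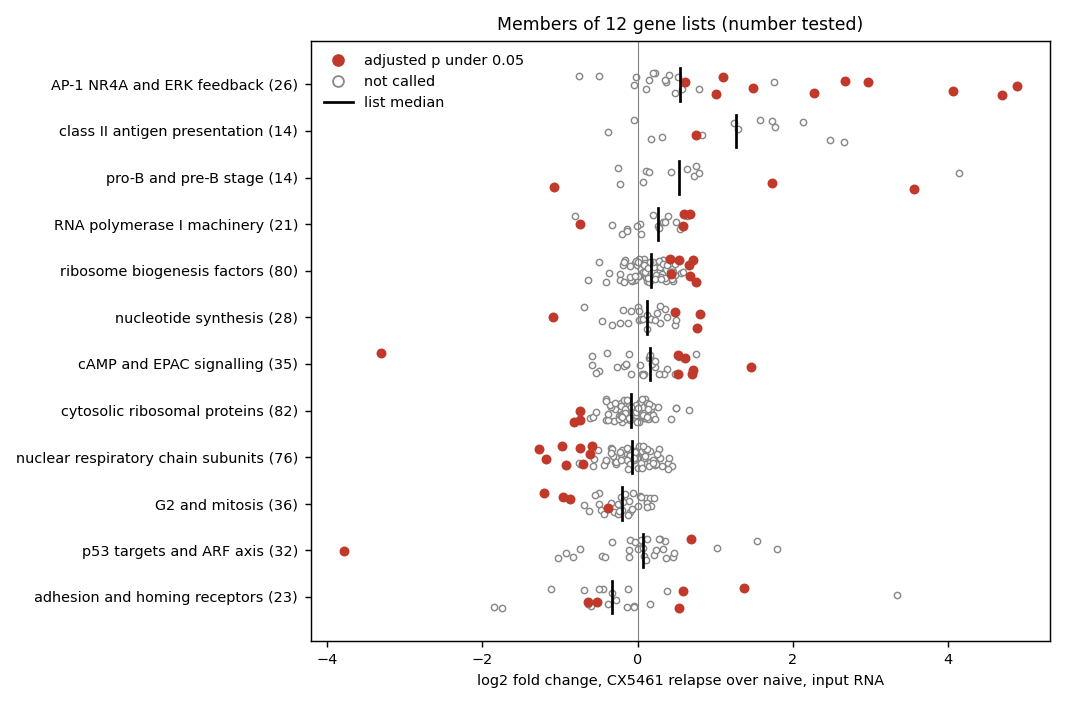
Log2 fold change of CX5461 relapse over naive lines (x axis) for the members of 12 gene lists (y axis, number tested in brackets); filled red points are called genes, open points are not called, and the black bar is the list's median. The list of AP-1, NR4A and ERK feedback genes has 10 filled points, all to the right of 0, while most lists have a median close to 0.

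Antigen presentation set CX5461 20 apart from its group. Members of the class II list, given here after their values were seen, were high in that line but in no other CX5461 or naive line: Cd74, the invariant chain, was at 176, 132 and 79.5 CPM in the naive lines and at 138, 1101 and 79.8 CPM in CX5461 14, 20 and 39. Ciita, the master activator of class II genes, was at 12, 17.7 and 13.4 CPM against 17.4, 113 and 13.1 CPM. H2-Aa was at 17.1, 23.3 and 17.6 CPM against 14, 151 and 8.88 CPM. The list's median was 1.27 with all lines and -0.06 without CX5461 20, and of 14 members only Rfx5, a class II promoter factor, was called. Rfx5 lies on chromosome 3, and its call was kept in 5 of 14 alternatives. The relapse lines of the other treatments were high too, with Cd74 at 342 to 448 CPM in the everolimus lines and 420 to 703 CPM in the combination lines, and Ciita at 28.8 to 53.5 CPM and 41.8 to 64.9 CPM. The difference between these groups and CX5461 14 and 39 was not tested.

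Of the marker lists for other cell types, 2 moved with the groups without overlap, and their part in the results was not tested. The 11 plasma cell genes summed to 539 to 568 CPM in the naive lines and 607 to 754 CPM in the CX5461 lines. Of these sums, Irf4 made 406.5, 318.5 and 320.2 CPM against 547.4, 485.4 and 565.8 CPM. The median log2 fold change of the 7 members tested was -0.42, with 2 called higher and 2 lower. The 16 stromal and endothelial genes summed to 235 to 264 CPM in the naive lines and 149 to 156 CPM in the CX5461 lines, of which Vim, also expressed by lymphoid cells, made 184, 223 and 208 CPM against 114, 96.1 and 97.4 CPM; Col1a1 did not exceed 0.661 CPM. Sums for 19 T-cell genes (9.56 to 13.4 CPM naive, 5.63 to 10.4 CPM CX5461), 12 NK genes (0.278 to 2.64 and 0.463 to 1.37 CPM), 21 myeloid genes (122 to 139 and 114 to 142 CPM) and 11 erythroid and platelet genes (1.16 to 1.94 and 1.2 to 3.29 CPM) overlapped between the groups. The 20 B-cell genes summed to 4861 to 5955 CPM in the naive lines and 3811 to 6687 CPM in the CX5461 lines.

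Polysomal RNA, from fractions with 4 or more ribosomes, was made from the same lines and gives a second library of each. There 1686 of 14797 genes were higher in the CX5461 lines (11.4%) and 1196 lower (8.08%). All 15 of the largest input rises and 14 of the 15 largest falls were called there too, with Ccnd2 the exception (edgeR adjusted p = 0.0508), and of all 102 called named genes 70 were called and 99 had the same sign. Rag1 rose by 3.35, Dusp4 by 4.74 and Spry4 by 4.54 on the log2 scale. Chromosome 6 medians were -0.67, -0.50 and -0.64 in polysomal RNA of CX5461 14, 20 and 39, and those of chromosome 3 were 0.07, 0.49 and 0.06. Other chromosomes were shifted there too in CX5461 14 and 39. Their medians were -0.35 and -0.28 on chromosome X, -0.25 and -0.21 on chromosome 1 and 0.148 and 0.185 on chromosome 5. CX5461 20 had 0.04, -0.03 and 0.03 on these. The polysomal libraries are confounded with run: all 3 CX5461 lines and naive 6 are in the low run and naive 33 and 38 in the high run, and with the low run alone 6 genes were called.

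In the acute study few of these genes were called. At 2 h after CX-5461, 64 of 16055 genes differed from vehicle (0.399%), 2 higher and 62 lower, in another clone. Of the 101 named genes that could be tested, 1 was called: Nlrc5, an activator of class I genes, was lower there (-0.42, edgeR adjusted p = 0.0302) and higher in the relapse lines (0.77 ± 0.19). Against the everolimus relapse lines, 27 of the 102 named genes were called, all in the direction of the comparison with naive lines, which shares the CX5461 libraries. Spry4 was one of them (3.12, edgeR adjusted p = 0.002), at 1.64, 3.18 and 1.74 CPM in everolimus lines 4, 12 and 26. Against the combination lines none of the 102 was called.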

How the data were processed

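Cytoplasmic RNA of each line was stripped of ribosomal RNA before library preparation and sequenced from 1 end for 50 bases, per the labels' protocols. The authors aligned reads with TopHat2 and counted them with HTSeq on GRCm38, per the submitters' processing notes; versions, annotation and strand are not given in the sources used here. The deposited values are raw counts per gene symbol, unfiltered and not normalized, with 35556 genes in each relapse table and totals of 14.6 to 26 M per relapse input library. Strand is unknown, so overlapping and antisense genes may share reads. Each relapse table holds 27 names turned into dates, which were tested but not named.

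From the counts, edgeR 4.0.16 (R 4.3.3) was fitted once per table with TMM scaling, filterByExpr and the quasi-likelihood test, all groups sharing 1 estimate of the spread, with Benjamini-Hochberg adjusted p-values over all tested genes and a threshold of 0.05. Each standard error was taken from the log2 fold change and its F statistic, and log2 CPM has a prior count of 2. Genes near 0 in a group are given as the ratio of summed, scaled counts with a 95% counting interval. On simulated counts for 14239 genes, the test recovered 10.4%, 41.8% and 98.5% of genes changed by 1.5-, 2- and 4-fold, and 4.76% of its calls were genes without a change. The simulated libraries were drawn independently of each other, and changes were planted only in genes that were not of low level. The closer likeness of some lines within a group was not simulated, so these rates may not hold for the real libraries. Gene places and V exons are from GENCODE M21 on GRCm38, which held 13525 of the 14474 tested symbols.

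Members and gene lists were chosen with earlier results of these data known. The text names genes by a rule: among called genes with at least 1 log2 CPM in the higher group and no overlap of the groups, the 15 largest rises and the 15 largest falls, passing over clone-number, date-like, immunoglobulin, T-cell receptor, histone and pseudogene names. To these come up to 3 called members per direction of each of 35 lists, and 22 genes named whatever their result, of which 1 is not reported here. Other genes are given as members of a list, or were chosen after their values were seen. The columns were placed in runs by Gm9341, below 5 or above 30 CPM. Alternatives were DESeq2 1.42.0, RLE scaling, keeping all genes, a fit of the 2 groups by themselves, run as a term, each run by itself, and leaving out single lines. Counts of the acute polysomal table were not used.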

Additional observations from a re-analysis of the deposited data

Results flagged for a closer look

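For 4 genes called between the CX5461 relapse and naive lines, the difference between groups itself differed between the 2 processing runs in an edgeR interaction test of 16588 genes, of which 55 were called. The value given is the low-run difference minus the high-run difference on the log2 scale. Each run holds different lines, so run and line cannot be told apart in these input libraries. Hey1 rose in both runs, by 3.20 in log2 CPM in the low and 7.20 in the high run (fitted interaction -5.06, adjusted p = 0.0399), with CX5461 20 at 21.3 CPM against 3.2 and 3.15 CPM in CX5461 14 and 39. Iglc2 fell more in the low run (interaction -3.87, adjusted p = 0.033). Arvcf, a catenin of the p120 family, fell more in the high run (interaction 2.20, adjusted p = 0.00975), at 35.2, 58.8 and 53.4 CPM in the naive lines and 15.9, 2.31 and 17.2 CPM in CX5461 14, 20 and 39. Rab3ip rose in the low run by 1.18 and differed by -0.06 in the high run (interaction 1.28, adjusted p = 0.0466).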

How the results depend on the processing

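The 1211 genes called between CX5461 relapse and naive input became 1896 with DESeq2, 582 with the compared groups alone, 2293 with a run term, 2054 in the low run, 666 in the high run and 365 to 1139 with each line left out (365 without CX5461 14, 480 without naive 33, 640 without naive 38, 498 without CX5461 39). They became 155 with CX5461 39 and naive 38 both left out, an alternative chosen after seeing the data, since each of these lines has a close relative in its group; 153 of the 155 were among the 1211. A run of 1 line per group takes its spread from the other lines. No named gene reversed except Eif3b, at -0.00 (-0.001568) within the high run. The polysomal count of 2882 became 441 with the compared groups alone, 584 with a run term, 6 within the low run and 505 to 8970 with each line left out (8970 without CX5461 20). The 585 genes against everolimus lines became 1419 with DESeq2, 1079 without a count filter, 363 with the groups alone, 2516 with a run term, 1476 in the low run and 18 to 796 with each line left out (18 without CX5461 39, 19 without everolimus 26, 26 without CX5461 14). The 3 genes against combination lines became 49 with DESeq2, 197 without a filter, 0 with the groups alone, 5 with a run term, 725 in the low run, 38 in the high run and 0 to 51 with each line left out. The acute count of 64 became 154 with DESeq2 and 35 with the groups alone. Of 102 called named genes, 23 kept their call in all 14 alternatives. Over the settings, chromosome 6 had 34 to 238 lower genes and a median of -0.53 to -0.45, and chromosome 3 had 19 to 162 higher genes. Without a count filter the median of all genes was -0.11. No paired analysis was possible because the relapse groups share no line numbers. With 3 lines a group, most 1.5-fold changes lay beyond what the test recovered on the simulated counts.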

Other observations

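Further genes outside the naming rule are given here, chosen after their values were seen. Lgr5, a receptor for R-spondin that stands with Rnf43 in the control of Wnt receptors, was at 5.52, 2.39 and 3.79 CPM in naive 6, 33 and 38 and at 29.2, 38.5 and 25.7 CPM in CX5461 14, 20 and 39 (log2 fold change 2.99 ± 0.28, edgeR adjusted p = 0.000187). Sox12, an SRY-box transcription factor, rose from 3.06, 4.29 and 4.01 CPM to 32.1, 26.4 and 28.9 CPM (2.94 ± 0.25, edgeR adjusted p = 0.000134). Gdf11, a ligand of the TGF-beta family, rose from 1.95, 1.54 and 1.63 CPM to 12.8, 26.2 and 13.6 CPM (3.35 ± 0.30, edgeR adjusted p = 0.000156). Lef1, a Wnt pathway transcription factor, was at 0.318 to 0.837 CPM in the naive lines and 14.3, 4.97 and 13.9 CPM in the CX5461 lines, yet was not called (edgeR adjusted p = 0.0916), and it varied from 0.448 to 22.5 CPM between the everolimus lines.

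Plasma cell genes moved in both directions. Sdc1, the plasma cell surface proteoglycan CD138, was at 9.6, 22.1 and 24.4 CPM in the naive lines and 93, 23.4 and 92.7 CPM in CX5461 14, 20 and 39, so CX5461 20 was just below naive 38. Irf4 rose from 406, 318 and 320 CPM to 547, 485 and 566 CPM (0.61 ± 0.16), while Mzb1 fell from 92.8, 178 and 153 CPM to 73.3, 61.1 and 66.8 CPM (-1.08 ± 0.20) and the elongation factor Ell2 fell from 4.73, 4.29 and 3.26 CPM to 1.11, 1.68 and 0.955 CPM (-1.72 ± 0.28). Among homing receptors, Cxcr4 fell from 249, 261 and 243 CPM to 166, 161 and 155 CPM (-0.64 ± 0.17) and Ccr7 rose from 31, 32.4 and 30.7 CPM to 54.4, 46.6 and 40.1 CPM (0.58 ± 0.17). Of 14 alternatives, the call was kept in 3 for Ccr7, 6 for Cxcr4, 6 for Irf4, 8 for Sdc1, 11 for Mzb1 and 13 for Ell2.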
